A study of Mus musculus with 7 samples.

Results

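Mural cells wrap the endothelial tubes of blood vessels, and the 10 genes described here mark them or signal to them. They fall into 6 genes used as pericyte markers (Pdgfrb, Rgs5, Kcnj8, Abcc9, Anpep and Notch3), 3 genes of the contractile apparatus (Acta2, Tagln and Myh11) and Pdgfb, the endothelial ligand of the pericyte receptor. They were chosen by symbol, with earlier results of these data known, and each matched 1 row of the count table of 21965 genes. All 10 passed the filter on low counts, which left 15743 genes for testing, and their counts ran from 211 to 16787 reads in a library.

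RNA was measured by RNASeq in a 5 mm segment of the injury epicenter, taken on dpi 3 (days post injury) after a T9 contusion of 50 kdyn, which the labels call moderate. One group is 3 mice labelled Bmal1-/- (B6.129-Arntltm1Bra/J, C57BL/6 in the labels and C57BL/6J in the methods, 2 females and 1 male), a germ-line line in which Arntl, the gene of the clock transcription factor BMAL1, is deleted in all tissues and not in mural cells alone. The other is 4 C57BL/6 WT mice (C57BL/6J in the methods, 2 females and 2 males), 1 of them a littermate of the knockouts. Each library is 1 mouse, all 7 mice were injured at 8 to 10 weeks of age, and no uninjured cord entered the comparison.

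Pericytes sit on capillaries inside the vascular basement membrane, and in the central nervous system they help to form and keep the blood-brain and blood-spinal cord barriers. Endothelial cells release PDGF-BB, the product of Pdgfb, and PDGFRB on mural cells receives it, which recruits and retains them on the vessel. Smooth muscle cells of arteries and arterioles carry large amounts of actin, myosin heavy chain and transgelin, whereas capillary pericytes carry little of these. After spinal cord injury, cells that bear PDGFRB also contribute to the fibrotic scar. The comparison asks whether the pericyte and the contractile genes differed between the genotypes in the same way.

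RefSeq promoter sequences (GRCm38.p6) were at hand for 6 of the 10 genes, namely Rgs5, Kcnj8, Abcc9, Anpep, Notch3 and Acta2. The windows searched are the 250 bases upstream of the RefSeq start. Sequence is shown for Rgs5 and Abcc9, the 2 pericyte genes whose libraries did not overlap between the genotypes, in opposite directions, written 5′ to 3′ on the strand of the gene. For Rgs5 it is the whole window, chr1:169655251-169655500 on the plus strand. For Abcc9 it is the 209 bases chr6:142702316-142702524 on the minus strand, since GENCODE places the remaining 41 in an exon of the gene.

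Rgs5: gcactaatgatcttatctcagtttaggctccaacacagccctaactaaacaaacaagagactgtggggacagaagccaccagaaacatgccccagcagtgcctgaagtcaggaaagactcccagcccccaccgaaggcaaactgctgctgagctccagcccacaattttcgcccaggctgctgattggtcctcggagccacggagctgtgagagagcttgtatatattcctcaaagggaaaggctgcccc

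Abcc9: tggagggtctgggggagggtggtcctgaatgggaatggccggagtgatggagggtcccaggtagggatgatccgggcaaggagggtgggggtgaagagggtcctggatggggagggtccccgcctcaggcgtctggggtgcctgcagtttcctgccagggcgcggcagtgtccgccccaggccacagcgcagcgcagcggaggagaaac

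Of the Acta2 window (chr19:34255374-34255623, minus strand) only the matches to a motif are shown, because GENCODE starts the gene 217 bases further upstream than RefSeq and places that part of the window in the untranslated first exon. The motif is the CArG box, the site of serum response factor in contractile genes, in a relaxed form that lets 1 of the 6 central letters given to A or T be G or C. Its 2 matches in Acta2 are CCCTATATGG at chr19:34255448-34255457 and CCTTGTTTGG at chr19:34255398-34255407, which is 84 to 75 and 34 to 25 bases before the RefSeq start, and inside the first exon by GENCODE. The other 5 windows hold no relaxed match, and none of the 6 holds a strict CArG box, the clock E-box CACGTG or the word GTGGGAA that the Notch effector RBPJ binds. Both strands were searched. Among 32851 promoter windows of 250 bases, 8.59% hold a relaxed CArG box, 1.47% a strict one, 6.02% CACGTG and 5.42% GTGGGAA. The relaxed form was searched only after the strict one had given no match.

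A few facts of the whole experiment bear on the values below. Total counts ran from 38529644 to 44096737 per library. Spinal cord genes were present in all 7 libraries, with the astrocyte gene Gfap at 10021 to 12657 CPM in the libraries labelled Bmal1-/- and 7457 to 10001 CPM in WT (counts of a gene relative to its library's total, scaled by TMM), the myelin gene Mbp at 10914 to 19940 CPM, the oligodendrocyte lineage gene Olig2 at 56.8 to 66.9 CPM, and the neuronal gene Snap25 at 1240 to 1689 CPM in the libraries labelled Bmal1-/- and 456 to 1223 CPM in WT, lowest in WT replicate 3. WT replicate 3 had the highest score on both leading principal components (48.6% and 26.3% of the variance, scores 51.4 and 36.9). On the first, all libraries labelled Bmal1-/- were below 0 and all of WT above, and Bmal1-/- replicate 3 was at -48.6. On the second, WT replicates 1 and 2 were each at -32.4. Arntl, which encodes BMAL1, went against the labels at the level of the whole gene: it had 24.1, 24.2 and 22.5 CPM in the libraries labelled Bmal1-/- and 14.7, 15.3, 11.9 and 13.4 CPM in WT (log2 fold change 0.77, SE 0.10, adjusted p = 0.0155 by the quasi-likelihood test of edgeR, Benjamini-Hochberg adjusted over all genes tested). A count over the whole gene also takes in transcript outside a deleted part, so it is no check of the deletion. The clock output genes Nr1d1 and Dbp fell by 2.51 and 1.85 on the log2 scale and Npas2 rose by 2.62 in the same libraries (edgeR adjusted p = 0.000456, 0.00328 and 0.000918). WT is used below as the labels give it, and the knockouts are named as labelled.

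Tagln fell in the libraries labelled Bmal1-/-, and it was the 1 gene of the 10 that passed the test. At that threshold (edgeR adjusted p under 0.05) 1.57% of all genes tested were called, 0.915% lower and 0.654% higher. The libraries of the 2 groups did not overlap for 4 lower genes (Tagln, Acta2, Rgs5 and Pdgfb) and 1 higher gene (Abcc9), against 13.5% of all genes tested in the lower and 13.4% in the higher direction (26.9% in either). At an unadjusted p under 0.05 were 6 of the 10 (Pdgfrb, Rgs5, Abcc9, Notch3, Acta2 and Tagln), against 20.9% of all genes tested. The 3 contractile genes had log2 fold changes of -0.47 to -1.88, while the 6 pericyte genes split into 3 below and 3 above 0, between -0.47 and 0.33.

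**Figure D1:**
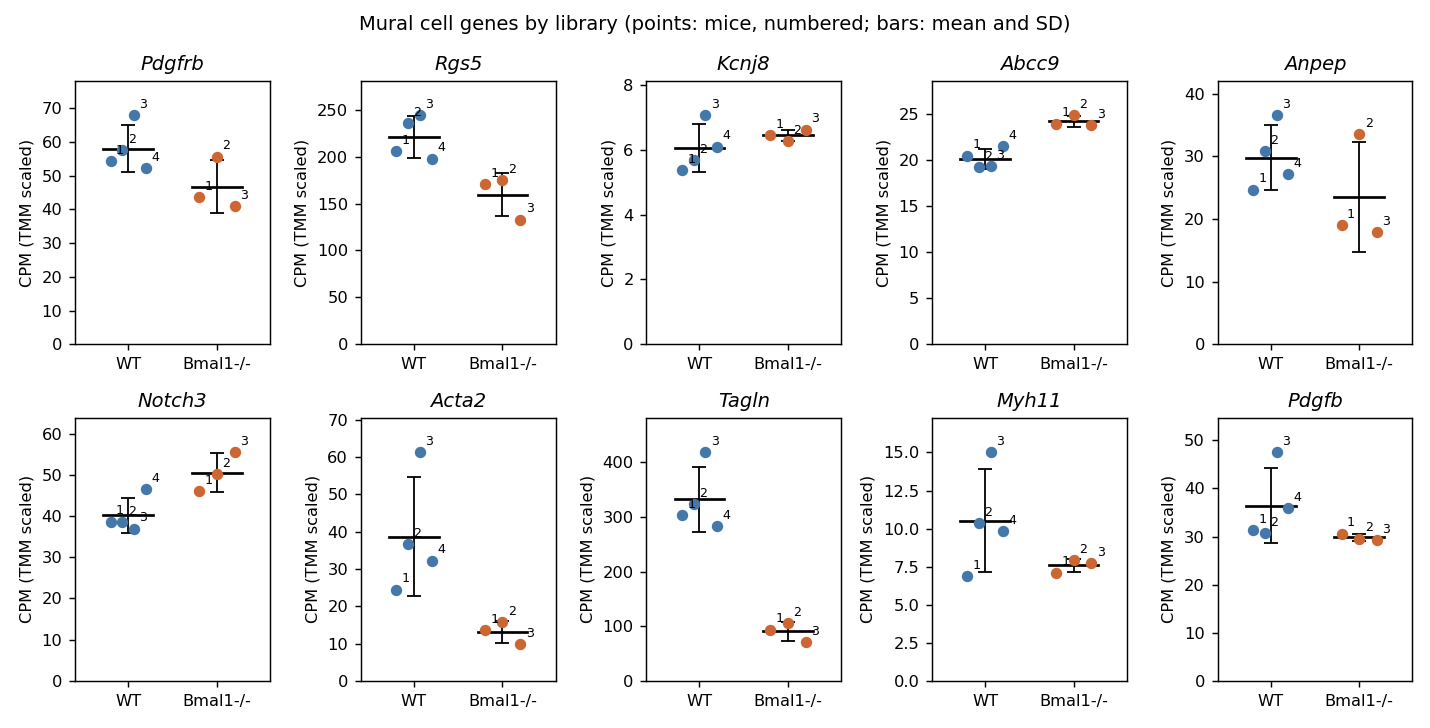
Level of each of the 10 genes in CPM (TMM scaled, linear axis from 0) in the 4 WT libraries and the 3 libraries labelled Bmal1-/-, with points numbered by replicate and bars for mean and SD. Tagln sits at 71.6 to 106 CPM in the libraries labelled Bmal1-/- and at 284 to 419 CPM in WT, whereas the Pdgfrb, Kcnj8, Anpep, Notch3 and Myh11 points overlap between the groups.

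Tagln encodes transgelin (SM22), an actin-binding protein of smooth muscle. Its level was 94.0, 106 and 71.6 CPM in the libraries labelled Bmal1-/- and 304, 323, 419 and 284 CPM in WT. The highest of the former lay far below the lowest WT library, so the groups did not overlap. The means were 90.6 ± 17.5 CPM (SD, n = 3) and 333 ± 59.9 CPM (SD, n = 4), which is 3.67-fold lower (log2 fold change -1.88, SE 0.19, adjusted p = 0.00525, edgeR's quasi-likelihood test). Only 0.858% of the genes tested had as low a log2 fold change. In bulk tissue, fewer cells that express Tagln, whatever their type, and less of its RNA in each cell cannot be told apart.

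The call for Tagln held with any 1 library left out, with log2 fold changes between -2.004 and -1.74 and edgeR adjusted p from 0.00176 to 0.0452. It also held with sex as a covariate (edgeR adjusted p = 0.0150). Tagln (chr9:45929619-45936058, GRCm38, minus strand) shares 108 exonic bases with Pcsk7 on the opposite strand and 1241 with the antisense gene Gm48529, which has no row in the table. The library kit keeps strand, but whether the counting used it is not given in the sources used here. Pcsk7 had 30.5 ± 0.360 CPM (SD, n = 3) under the Bmal1-/- label and 31.2 ± 1.74 CPM (SD, n = 4) in WT, overlapping, with a log2 fold change of -0.03 (edgeR adjusted p = 0.772).

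Acta2 encodes smooth muscle alpha actin, the main actin of arterial muscle and of myofibroblasts. It had 13.6, 15.7 and 9.80 CPM in the libraries labelled Bmal1-/- and 24.4, 36.7, 61.3 and 32.2 CPM in WT. The groups did not overlap, and WT replicate 3 stood 1.67 times above the next library. Means of 13.1 ± 3.01 CPM (SD, n = 3) and 38.7 ± 15.9 CPM (SD, n = 4) gave a log2 fold change of -1.57 (SE 0.33, 95% interval -2.34 to -0.80), which missed the threshold (edgeR adjusted p = 0.0714). The call turned on the test and on 1 library. Without WT replicate 3 the fold change was smaller, -1.25, but the edgeR adjusted p was 0.0242, and DESeq2 on all 7 libraries gave an adjusted p of 8.90e-05. Acta2 (chr19:34241090-34255590, minus strand) overlaps no annotated gene, but its coding sequence is close to that of the other actins, and how reads that fit several actins were counted is not given in the sources used here. Acta1, the skeletal muscle actin, fell by 3.25 on the log2 scale (edgeR adjusted p = 0.00851), a call lost without Bmal1-/- replicate 1 (adjusted p = 0.0666).

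Myh11 (chr16:14194535-14291372, minus strand), the smooth muscle myosin heavy chain and the most specific muscle marker of the 3, showed a smaller difference. It had 7.12, 7.91 and 7.74 CPM in the libraries labelled Bmal1-/- and 6.86, 10.4, 15.0 and 9.86 CPM in WT. The groups overlapped, since WT replicate 1 was the lowest library of all. The log2 fold change was -0.47 (SE 0.24, 95% interval -1.04 to 0.09, edgeR adjusted p = 0.294), and -0.25 without WT replicate 3.

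**Figure D2:**
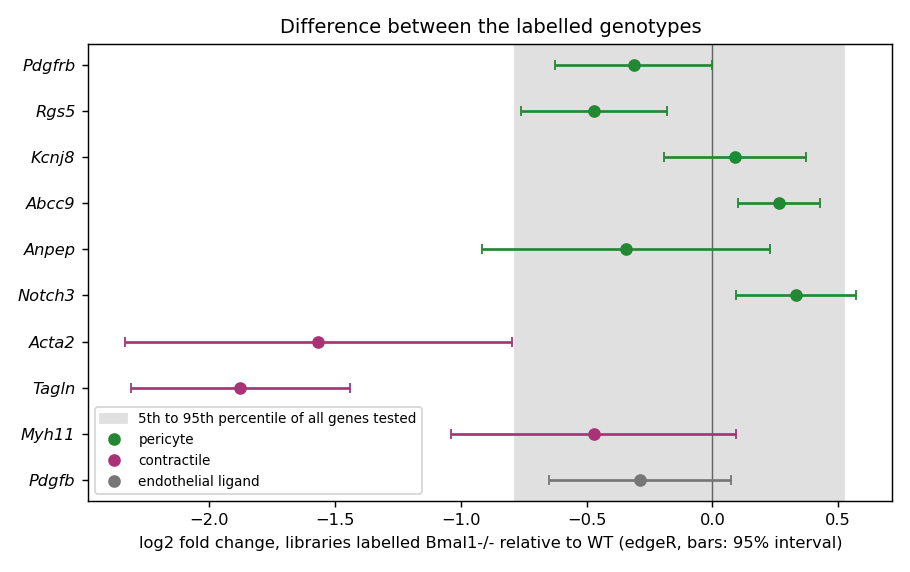
Log2 fold change of each of the 10 genes in the libraries labelled Bmal1-/- relative to WT (edgeR, points) with 95% intervals (bars), coloured by role, over the 5th to 95th percentile of all genes tested (grey, -0.79 to 0.52). Tagln and Acta2 lie to the left of the grey band and the other 8 points within it.

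Pdgfrb (chr18:61045150-61085061, plus strand) encodes the receptor that defines mural cells. Levels of 43.6, 55.7 and 41.0 CPM were measured in the libraries labelled Bmal1-/- and 54.3, 57.7, 68.0 and 52.2 CPM in WT. The groups overlapped through Bmal1-/- replicate 2, which lay above 2 of the WT libraries. The means were 46.7 ± 7.85 CPM (SD, n = 3) and 58.1 ± 6.97 CPM (SD, n = 4), and the log2 fold change of -0.31 (SE 0.13) missed the threshold (edgeR adjusted p = 0.239). It was -0.46 without Bmal1-/- replicate 2 and -0.23 without WT replicate 3, with edgeR adjusted p of 0.153 and 0.283.

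Anpep encodes aminopeptidase N (CD13), a surface enzyme of brain pericytes that myeloid cells and fibroblasts also carry. It had 19.0, 33.6 and 17.9 CPM in the libraries labelled Bmal1-/- and 24.7, 30.8, 36.5 and 27.2 CPM in WT. As for Pdgfrb, Bmal1-/- replicate 2 was among the high libraries and the other 2 were the lowest. The log2 fold change was -0.34 (SE 0.24, edgeR adjusted p = 0.408), and -0.69 without that library (adjusted p from 0.132 to 0.786 over the alternatives tried).

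Bmal1-/- replicate 2 was also the library with the highest sum of fibroblast markers. The summed level of 10 fibroblast markers (the collagens Col1a1, Col1a2 and Col3a1, and Lum, Dcn, Dpt, Pi16, Col15a1, Slc6a13 and Lama1) was 2263 CPM there, against 412 and 331 CPM in the other 2 libraries labelled Bmal1-/- and 1154 to 1891 CPM in WT. The 3 collagens carry this sum, with 640, 628 and 759 CPM in that library, which was the highest of the 7 for these 3 markers and not for the other 7 (Dcn 170 CPM there and up to 254 CPM in WT, Lama1 6.64 CPM and the lowest of all). None of the 10 was at 0 in any library. Their part in the Pdgfrb and Anpep values was not tested. Anpep lies 33.3 Mb from Arntl on chromosome 7, at chr7:79821803-79861059, and shares no exonic base with Gm44974, the annotated gene within its span.

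Rgs5 (chr1:169655501-169695813, plus strand) encodes a regulator of G protein signaling and is among the most abundant transcripts of brain pericytes. Its level was 171, 175 and 133 CPM in the libraries labelled Bmal1-/- and 206, 236, 244 and 198 CPM in WT. All 3 libraries lay below the 4 of WT. The means of 160 ± 23.2 CPM (SD, n = 3) and 221 ± 22.4 CPM (SD, n = 4) gave a log2 fold change of -0.47 (SE 0.12, 95% interval -0.76 to -0.18), with an edgeR adjusted p of 0.116 and a DESeq2 adjusted p of 0.0126. DESeq2 called 9.13% of the genes it tested and edgeR 1.57%.

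Kcnj8 and Abcc9 encode the pore (Kir6.1) and the sulfonylurea receptor (SUR2) of the mural cell KATP channel, a potassium channel gated by ATP. They are neighbours on chromosome 6, 16247 bases apart on the minus strand (chr6:142564837-142571614 and chr6:142587862-142702315). Kcnj8 had 6.46, 6.27 and 6.62 CPM in the libraries labelled Bmal1-/- and 5.38, 5.68, 7.06 and 6.10 CPM in WT. These overlapped, with a log2 fold change of 0.09 (SE 0.12, 95% interval -0.19 to 0.37, edgeR adjusted p = 0.655). Abcc9 had 23.9, 24.8 and 23.8 CPM against 20.5, 19.2, 19.3 and 21.5 CPM, so all 3 libraries labelled Bmal1-/- lay above WT.

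The Abcc9 means were 24.2 ± 0.570 CPM (SD, n = 3) and 20.1 ± 1.09 CPM (SD, n = 4). The resulting log2 fold change of 0.26 (SE 0.07, 95% interval 0.10 to 0.43) missed the threshold of edgeR (adjusted p = 0.113) and passed that of DESeq2 (adjusted p = 0.00791). The difference was small, and the spread within each group smaller still. Abcc9 shares 158 exonic bases with the antisense gene 5330439B14Rik, which has no row in the table.

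Notch3 (chr17:32120820-32166852, minus strand) encodes the Notch receptor of mural cells, which smooth muscle carries as well as pericytes. It had 46.0, 50.1 and 55.5 CPM in the libraries labelled Bmal1-/- and 38.6, 38.6, 36.9 and 46.5 CPM in WT. Bmal1-/- replicate 1 lay just below WT replicate 4, and the other libraries were apart. The log2 fold change was 0.33 (SE 0.10, 95% interval 0.09 to 0.57), the highest of the 10, with an edgeR adjusted p of 0.153 and a DESeq2 adjusted p of 0.0544. The 2 contractile genes without overlap thus lay on the other side of 0 from Notch3 in the same libraries. Notch3 shares 488 exonic bases with the antisense gene Gm17276, which was not counted either.

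Pdgfb (chr15:79995874-80014977, minus strand) spans Mir7213 and part of the antisense gene Gm41361, with no exonic base shared. It had 30.6, 29.6 and 29.2 CPM in the libraries labelled Bmal1-/- and 31.3, 30.7, 47.6 and 36.0 CPM in WT. The groups did not overlap, but the highest library labelled Bmal1-/- and the lowest of WT were next to each other, at 30.6 and 30.7 CPM. The log2 fold change was -0.29 (SE 0.15, edgeR adjusted p = 0.309) and -0.13 without WT replicate 3, the highest library. Markers of endothelium, the source of the ligand, are given with the other cell types below.

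The 2 sets were also compared within each library. These means restate the values of the genes above, which were chosen with results known, and are no further support for them. The 6 pericyte genes hold 3 below and 3 above 0, which partly offset each other in a mean. The mean log2 CPM of the 6 pericyte genes was 4.99, 5.21 and 4.95 in the libraries labelled Bmal1-/- and 5.03, 5.12, 5.25 and 5.12 in WT, which overlap, with group means 0.08 apart. That of the 3 contractile genes was 4.39, 4.57 and 4.14 against 5.22, 5.64, 6.19 and 5.49, which do not overlap, and the libraries labelled Bmal1-/- were 1.27 lower on average. Contractile minus pericyte level was -0.60, -0.64 and -0.81 in the libraries labelled Bmal1-/- and 0.19, 0.51, 0.93 and 0.37 in WT, without overlap. Its sign has no meaning of its own, since these levels are not divided by exon length.

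**Figure D3:**
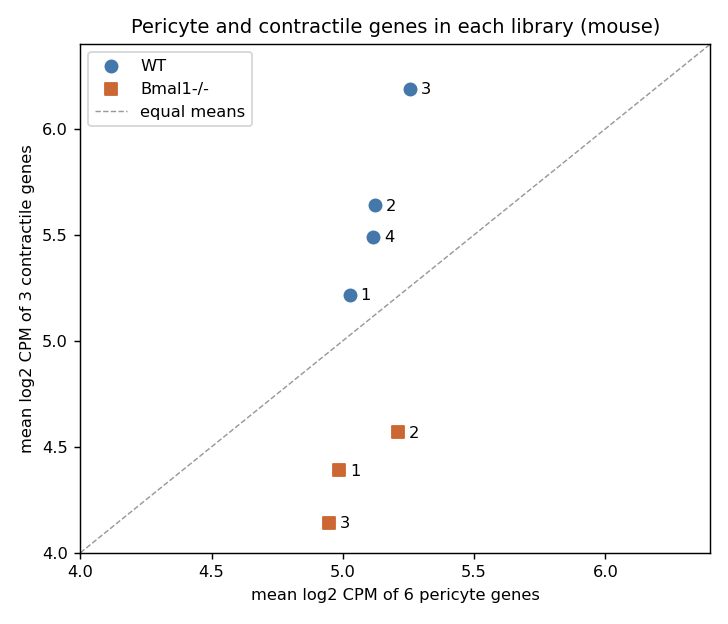
Mean log2 CPM of the 3 contractile genes (vertical axis) against that of the 6 pericyte genes (horizontal axis) in each library, numbered by replicate, with a dashed line of equal means. The 4 WT libraries lie above the line and the 3 libraries labelled Bmal1-/- below it. The line is only a visual guide, since levels are not divided by exon length. Both groups cover much the same range along the horizontal axis.

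The median log2 fold change was -1.57 over the 3 contractile genes and -0.11 over the 6 pericyte genes, beside -0.0057 over all genes tested. The contractile median was thus 1.45 lower, on the log2 scale, and this difference is given without a test, since the genes were chosen with results known. Leaving out 1 library at a time gave -1.58 to -1.22, and it was -1.66 to -1.25 under other scalings or without Notch3 or Anpep in the pericyte set. Tagln and Acta2 carry it, for Myh11 had the same rounded log2 fold change as Rgs5, -0.47. The contractile median is the value of Acta2, and no alternative left out Tagln or Acta2. With the other listed genes given below added, the medians lay closer together, at -0.67 for 23 muscle genes and -0.33 for 26 pericyte genes.

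**Figure D4:**
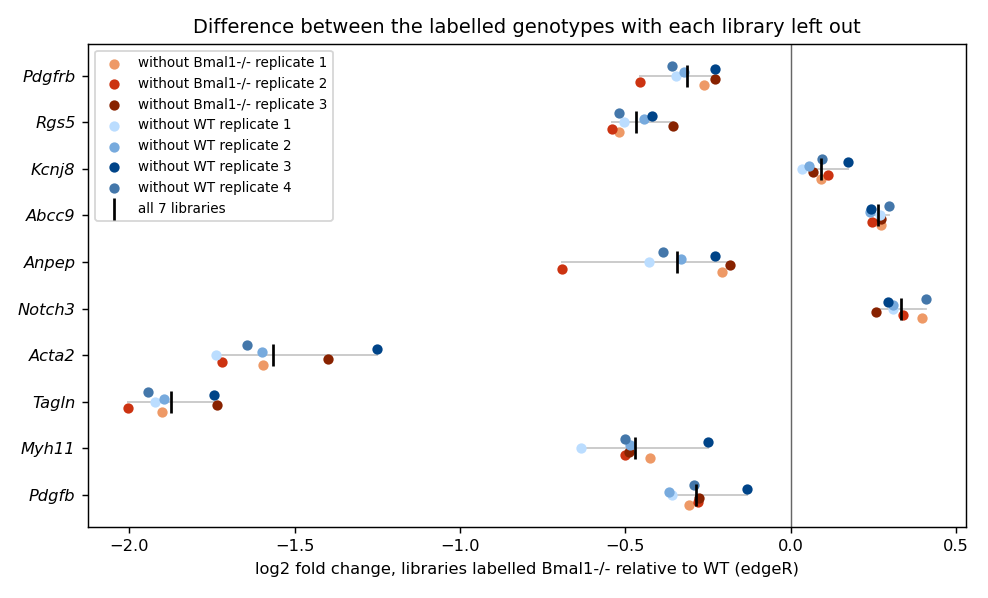
Log2 fold change of each of the 10 genes (libraries labelled Bmal1-/- relative to WT, edgeR) with all 7 libraries (black ticks) and with each library left out in turn (points, coloured by the library left out). Tagln stays at or below -1.74, Anpep spans -0.69 to -0.19, and no gene crosses 0.

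WT replicate 3 was the highest of the 7 libraries for 8 of the 10 genes, with Abcc9 and Notch3 as exceptions. Bmal1-/- replicate 3 was the lowest for 6 (Pdgfrb, Rgs5, Anpep, Acta2, Tagln and Pdgfb). Without WT replicate 3, 2 of the 10 passed the test (Tagln and Acta2), when 4.66% of all genes did (2.8% lower and 1.86% higher). By DESeq2 4 of the 10 passed, Rgs5, Acta2 and Tagln lower and Abcc9 higher, when 9.13% of all genes did (5.63% lower and 3.5% higher).

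Per kilobase of exon, Tagln led in both groups, at 167 ± 30.2 CPM per kb in WT (SD, n = 4) and 45.6 ± 8.82 CPM per kb under the Bmal1-/- label (SD, n = 3). Rgs5 followed at 48.6 ± 4.92 and 35.1 ± 5.10 CPM per kb. In WT came Acta2 (17.6 ± 7.25 CPM per kb), Pdgfrb (10.6 ± 1.27), Pdgfb (8.74 ± 1.88), Anpep (7.21 ± 1.25), Notch3 (4.96 ± 0.532), Abcc9 (2.40 ± 0.130), Kcnj8 (2.38 ± 0.288) and Myh11 (1.39 ± 0.444). Neighbours from Acta2 to Anpep, and Abcc9 with Kcnj8, overlapped between libraries, so their order is not fixed. Acta2 was the third in WT and the sixth, at 5.94 ± 1.37 CPM per kb, in the libraries labelled Bmal1-/-, after Pdgfrb, Pdgfb and Notch3.

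Other smooth muscle genes lay mostly on the same side as the contractile 3. Of 20 listed, 19 had a log2 fold change below 0, 3 fell past the threshold (0.915% of all genes did) and none rose, with a median of -0.65. Without overlap were 9 lower and 1 higher, against 13.5% and 13.4% of all genes tested, the latter being Susd5 (0.26), named after its value was seen. The 19 below 0 included small differences that overlapped, in Cnn1 (-0.16), Lmod1 (-0.10), Itga8 (-0.08) and Ppp1r14a (-0.08), with edgeR adjusted p of 0.699 to 0.861. These too were named after their values were seen. The genes that fell were Myl9, the regulatory light chain (45.8 ± 6.90 CPM in WT, n = 4, and 21.7 ± 2.65, n = 3; log2 fold change -1.08, edgeR adjusted p = 0.0155), Smtn, an actin-associated protein of contractile muscle (-0.72, adjusted p = 0.0228), and Des, the intermediate filament of muscle (-1.85, adjusted p = 0.0312). DESeq2 called 8 of the 20 lower, and 5.63% of all genes. Actg2, the enteric smooth muscle actin, was near the limit of counting, with 0 reads in Bmal1-/- replicate 1 and at most 1.41 CPM in any library.

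These 3 calls depended on single libraries and on the model. With sex as a covariate Smtn and Des lost theirs (edgeR adjusted p = 0.0527 and 0.0629), and Des also with limma-voom (adjusted p = 0.0655). Myl9 lost its call when Bmal1-/- replicate 1 or 3, or WT replicate 1, was removed (edgeR adjusted p 0.0569 to 0.0761). Smtn lost it without either Bmal1-/- replicate 1 or 3, or with WT replicate 1, 2 or 4 removed (0.0507 to 0.139), and Des without any of the libraries labelled Bmal1-/- or WT replicate 1 or 2 (0.0602 to 0.158). The log2 fold changes then were -1.16 to -0.99, -0.76 to -0.68 and -1.93 to -1.79. Of the most abundant, Tpm1, a tropomyosin, had -0.18, Cald1, caldesmon, -0.67 (adjusted p = 0.0927) and Sncg, a synuclein that neurons also express, -0.76 with WT libraries from 51.6 to 222 CPM.

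Other pericyte genes showed no call. Of 20 listed, 17 were below 0 and 3 above, with a median of -0.41 and 6 lower genes without overlap (13.5% of all genes). At an unadjusted p under 0.05 edgeR had 7 lower and 0 higher (20.9% of all genes in either direction), and DESeq2 called 5 lower (5.63% of all genes). The most abundant were Mcam, an adhesion molecule (-0.02, 95% interval -0.31 to 0.27), Cspg4, the proteoglycan NG2 that oligodendrocyte precursors share (-0.06, interval -0.31 to 0.20), and Vtn, vitronectin (-0.68, edgeR adjusted p = 0.118). Vtn had 43.5 ± 8.63 CPM (SD, n = 3) under the Bmal1-/- label and 69.7 ± 13.6 CPM (SD, n = 4) in WT without overlap. Counted together, 22 of 23 muscle genes (the 3 contractile and the other 20) and 20 of 26 pericyte genes were below 0, beside 51.1% of all genes tested, with medians of -0.67 and -0.33.

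**Figure D5:**
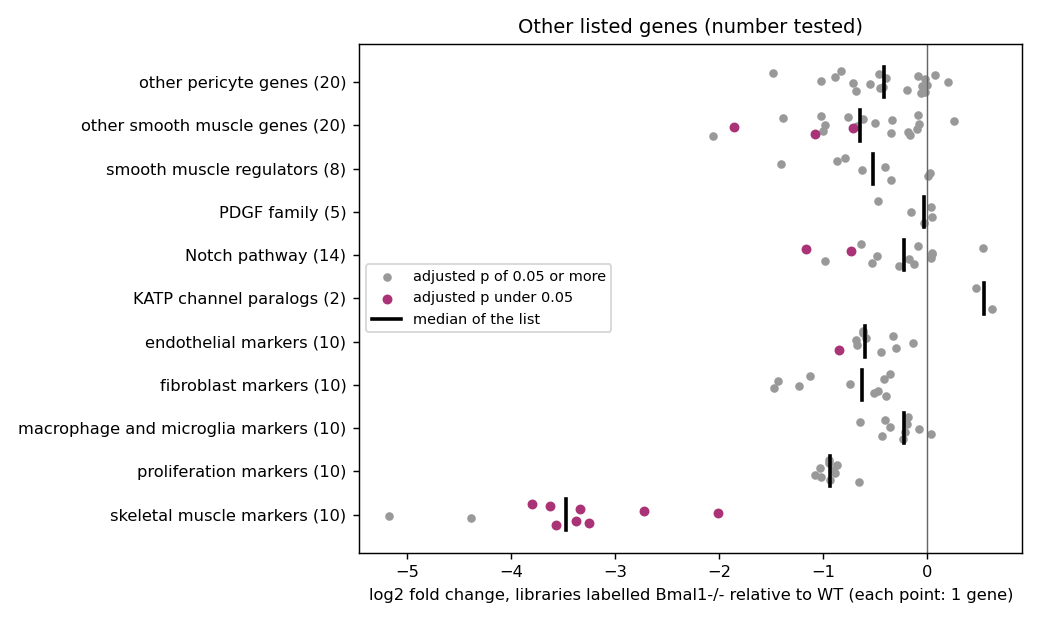
Log2 fold change of each gene (points; libraries labelled Bmal1-/- relative to WT, edgeR) in 11 further lists, with the list's median as a black bar and genes past an adjusted p of 0.05 in purple. The medians are -0.65 for other smooth muscle genes, -0.41 for other pericyte genes, -0.03 for the PDGF family and -3.47 for skeletal muscle markers, the list with the most calls (8 of 10).

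Around the PDGF receptor, the other members of the family showed no call in either direction. Of 5 genes, 3 were below 0 and 2 above, with a median of -0.03 that turned to 0.0099 without WT replicate 3, and with 0 of 5 at an unadjusted p under 0.05 in edgeR and 0 calls in DESeq2. Pdgfra, the receptor of oligodendrocyte precursors and fibroblasts, had 112 ± 4.31 CPM (SD, n = 3) and 109 ± 4.39 CPM (SD, n = 4) in WT, giving 0.04 on the log2 scale (95% interval -0.10 to 0.17). The ligand genes Pdgfa and Pdgfd had log2 fold changes of -0.03 and -0.16.

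Around Notch3, 2 target genes of the pathway fell past the threshold, as 0.915% of all genes did, and DESeq2 called 4 pathway genes lower (5.63% of all genes). Of 14 pathway genes 10 were below 0 (51.1% of all genes were), the median was -0.22, and 6 lower genes did not overlap (13.5% of all genes). Heyl, a Notch effector of vascular smooth muscle, had 5.58 ± 0.853 CPM (SD, n = 3) and 9.28 ± 0.228 CPM (SD, n = 4) in WT (log2 fold change -0.73, edgeR adjusted p = 0.0364). Hes1, a target found in many cell types, had 4.02 ± 0.869 and 9.01 ± 1.61 CPM (log2 fold change -1.16, edgeR adjusted p = 0.0419). Notch3 itself lay above 0, as given before.

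Neither of these calls held throughout. With sex as a covariate the edgeR adjusted p was 0.0715 for Heyl and 0.0812 for Hes1. Heyl lost it on removal of Bmal1-/- replicate 1 or 3, or of WT replicate 1, 2 or 4 (edgeR adjusted p 0.0773 to 0.181, log2 fold change -0.75 to -0.66). Hes1 kept it only without WT replicate 3 (otherwise 0.0588 to 0.181, log2 fold change -1.31 to -1.01). The most abundant pathway genes, the receptors Notch1 and Notch2 and the nuclear effector Rbpj, had log2 fold changes of -0.27, -0.13 and -0.08, none past the threshold.

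The KATP paralogs Kcnj11 and Abcc8, which neurons use, had log2 fold changes of 0.63 and 0.47 (edgeR adjusted p = 0.289 and 0.411). Their WT values were lowest in WT replicate 3, at 5.92 and 5.17 CPM, the library with the least Snap25. Without it the median of the 2 was 0.31 in place of 0.55.

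Markers of other cells differed beside the contractile genes. Gfap and Snap25 were higher under the Bmal1-/- label without overlap, as 13.4% of all genes tested were. Their log2 fold changes were 0.42 and 0.65 (edgeR adjusted p = 0.270 and 0.269), and their part in the contractile values was not tested. Mbp and Olig2 overlapped between the groups, at -0.28 and -0.02. All 10 skeletal muscle markers were below 0 (51.1% of all genes tested were), with a median of -3.47. Past the threshold 8 fell (Ckm, Acta1, Myh1, Mylpf, Tnnt3, Tnnc2, Atp2a1 and Xirp2), against 0.915% of all genes. The summed level of all 10 was 5.95 to 7.54 CPM in the libraries labelled Bmal1-/- and 56.5 to 72.6 CPM in WT. Myh4 was at 0 in Bmal1-/- replicate 1. Tnnc2 and Atp2a1 were called whichever library was left out. The other 6 lost the call without at least 1 of Bmal1-/- replicates 1 to 3 and WT replicates 1 and 4 (edgeR adjusted p up to 0.155). Skeletal muscle also carries Des, Tpm1 and others of the smooth muscle list. Its part in the values of that list and of the contractile genes was not tested. WT replicate 3, the highest for Acta2, Tagln and Myh11, had the lowest skeletal muscle sum of the WT libraries, 56.5 CPM. This order within WT does not bear on the difference between the groups.

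Endothelial markers were lower in all 10 cases (51.1% of all genes tested were), with a median of -0.60. Of the 10, Cdh5, the endothelial cadherin, fell past the threshold (-0.85, edgeR adjusted p = 0.0466), as 0.915% of all genes did. That call held only without WT replicate 3, and with any other library left out the adjusted p was 0.0532 to 0.216 (log2 fold change -0.94 to -0.78). With sex as a covariate it was 0.0912. Of the 10 endothelial markers, 6 were lower at an unadjusted p under 0.05 in edgeR (20.9% of all genes in either direction). Without overlap were 6 lower (13.5% of all genes), and DESeq2 called 3 lower (5.63% of all genes). The endothelial sum was 419 to 489 CPM in the libraries labelled Bmal1-/- and 508 to 857 CPM in WT, WT replicate 3 being highest, and the median was -0.36 without that library. Proliferation markers were below 0 for 10 of 10, none past the threshold in edgeR, with sums of 243 to 335 CPM and 408 to 734 CPM. In edgeR all 10 were at an unadjusted p under 0.05 (20.9% of all genes). DESeq2 called 9 lower (5.63% of all genes). Macrophage and microglia markers overlapped, with sums of 2176 to 2731 CPM and 2175 to 4058 CPM, and 0 of 10 called, 0 at an unadjusted p under 0.05 and 0 by DESeq2. Fibroblast markers had a median of -0.63, and of -1.85 without Bmal1-/- replicate 2. In edgeR 0 of 10 were called and 4 were at an unadjusted p under 0.05 (20.9% of all genes). DESeq2 called 2 lower (5.63% of all genes). The part of each of these lists in the mural cell values was not tested.

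The genes whose pattern over the 7 libraries lay nearest to that of Pdgfrb, by the mean absolute difference of centred log2 CPM among 14357 genes, were Tapbp (0.0456), Foxp1 (0.0464), Nedd1 (0.0550), Slc10a7 (0.0559) and Opn3 (0.0598). Rgs5, the nearest of the other 9 genes, ranked 501 at 0.113. For Acta2 the nearest were Slc38a5 (0.132), Rmi2 (0.176), Ermap (0.177), Aebp1 (0.206) and Spc25 (0.218). Tagln ranked 18, and Rgs5 809 at 0.517, ahead of Myh11 at 948. The points share their libraries and their scaling, and the ranking carries no test.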

How the data were processed

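Poly-A RNASeq libraries (TruSeq Stranded mRNA, 1 per mouse) were sequenced from injured cord, 3 labelled Bmal1-/- and 4 WT. The authors aligned reads to GRCm38 (mm10) with Tophat2 and deposited raw counts per gene from HTSeq 0.10.0, without normalization (FastQC 0.10.1 is also in the submitters' processing notes). The annotation release and the strand setting of the counting are not given in the sources used here. Totals were 38529644 to 44096737 counts, and at 211 counts or more the counting error of each of the 10 genes (at most 6.88%) was below its spread between WT mice. This error was taken at the lowest count among the 7 libraries, in either group. It exceeded the spread under the Bmal1-/- label for Kcnj8 (6.88% and 2.77%), Abcc9 (3.66% and 2.36%), Myh11 (6.10% and 5.53%) and Pdgfb (2.95% and 2.47%).

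The 10 genes, the lists and their rules were chosen with earlier results of these data known. Genes were filtered with filterByExpr on group, scaled with TMM and tested with the quasi-likelihood test of edgeR 4.0.16 (R 4.3.3) on group alone, with Benjamini-Hochberg adjustment over 15743 genes and a threshold of 0.05. Levels are CPM on TMM library sizes, and log2 levels use a prior count of 2. Gene positions, exonic lengths and overlaps came from GENCODE mouse release 21, which holds 21939 of the 21965 counted genes.

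Besides the 10 genes, 11 lists with 121 genes were read (Myocd and Tcf21 of the smooth muscle regulators did not pass the filter), by counts and medians with no test of the list. The text names all calls in them, the 3 most abundant genes of the pericyte, muscle, PDGF, Notch and KATP lists, and the 5 genes nearest in pattern to Pdgfrb and Acta2 (mean CPM of at least 1). Gfap, Mbp, Olig2, Snap25 and the clock genes besides Arntl were added to describe the tissue and labels. Alternatives were DESeq2 1.42.0, limma-voom (limma 3.58.1), RLE and upper-quartile scaling, dropping the filter (1 count in total), a filter on mean counts of 10 or more, a sex term, a replicate block and leaving out each library. The pipeline was tested on simulated data with known changes. In every pair of libraries at least 80.2% of the genes had unequal counts. Plots used python 3.11.15 and matplotlib 3.10.9.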

Additional observations from a re-analysis of the deposited data

How the results depend on the processing

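The log2 fold changes of the 10 genes kept their sign under all 15 alternatives. The number called, 1 with edgeR, was 4 with DESeq2, 0 with the replicate block and 1 to 2 with each library left out. It was 1 under limma-voom, RLE, upper-quartile scaling, either other filter and sex as a covariate. In the 11 further lists the number called, 14, was 44 with DESeq2 and 3 to 30 with each library left out (3 without Bmal1-/- replicate 1 or 3, 5 without WT replicate 1, 9 without WT replicate 4 and 30 without WT replicate 3). Over all genes 247 were called, 1495 with DESeq2, and 57 to 730 with 1 library left out, lowest without Bmal1-/- replicate 1 and highest without WT replicate 3. The PDGF family median was -0.069 to 0.0099 with 1 library left out, above 0 only without WT replicate 3. The causes were not tested.

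Replicate numbers are shared between the groups but did not pair the mice. Correlations of the deviations of same-numbered libraries were -0.174, 0.183 and -0.295, and 1 of the 3 libraries labelled Bmal1-/- correlated best with its own number. With the replicate block 0 genes were called (1590 at an unadjusted p under 0.05), and the adjusted p of Tagln was 0.173 (log2 fold change -1.95).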

Other observations

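Regulators of the smooth muscle program, a list not described so far, held no call. Of 8 that passed the filter, 6 had a log2 fold change below 0 and 5 did not overlap between the groups, all 5 on the lower side, and the median was -0.52 (5 at an unadjusted p under 0.05 in edgeR, 3 called lower by DESeq2). Over all genes tested 13.5% did not overlap on the lower side, 20.9% had an unadjusted p under 0.05 and 5.63% were called lower by DESeq2. Srf, serum response factor, had 29.6, 26.5 and 26.5 CPM in the libraries labelled Bmal1-/- and 31.8, 33.8, 39.9 and 34.7 CPM in WT (log2 fold change -0.35, SE 0.09, edgeR adjusted p = 0.121). Its partners Mrtfa and Mrtfb had log2 fold changes of 0.01 and 0.03, with 95% intervals of -0.13 to 0.16 and -0.16 to 0.22. Mef2c, a transcription factor of muscle that microglia and neurons also express, had 31.6 ± 0.793 CPM (SD, n = 3) and 41.9 ± 3.52 CPM (SD, n = 4) in WT without overlap (log2 fold change -0.41, edgeR adjusted p = 0.0579). These 4 genes were named after their values were seen.

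Among other pericyte genes, also named after their values were seen, Ifitm1 had the lowest log2 fold change, -1.48 (SE 0.29, edgeR adjusted p = 0.0579), with 6.96, 11.3 and 5.25 CPM in the libraries labelled Bmal1-/- and 22.4, 20.3, 27.9 and 16.7 CPM in WT. The transcription factors Foxf2 and Tbx18 of brain mural cells did not overlap either (-0.72 and -1.02, edgeR adjusted p = 0.128 and 0.138). Ebf1 had 30.2 ± 6.82 CPM (SD, n = 3) and 30.6 ± 11.5 CPM (SD, n = 4), which gives -0.02 on the log2 scale.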
